A study of Mus musculus with 20 samples.

Results

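miR-221 and miR-222 are a pair of X-linked microRNAs (miRNAs) that share a seed, and their mature forms were followed here through 4 stages of chemically induced mouse skin disease. The members are the features of the miRNA class whose names begin with mmu-miR-221 or mmu-miR-222, both arms of each hairpin included. They number 4 of the 1137 mature miRNAs in the table: mmu-miR-221-3p, mmu-miR-222-3p, mmu-miR-221-5p and mmu-miR-222-5p, written below without the species prefix. Small RNA was sequenced from skin biopsies of FVB/N mice in 20 libraries, 5 from each stage. Healthy skin came from animals given acetone, the solvent. Hyperplastic skin, which is thickened but holds no tumour, came from animals given DMBA, a mutagen that starts tumours, and PMA, a phorbol ester that promotes them. The same DMBA/PMA treatment gave papillomas, which are benign, and cutaneous squamous cell carcinomas (cSCC). Whatever is set against healthy skin thus differs from it in treatment as well as in lesion, and these cannot be told apart. It is not stated whether the biopsies of a stage were taken from different mice, so a p-value covers only the spread seen among these libraries.

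A miRNA is cut from a hairpin precursor, and one arm usually enters the Argonaute silencing complex while the other is degraded. The loaded strand finds target mRNAs mainly through its seed, bases 2 to 8, and lowers their translation and stability. The 3p arms of miR-221 and miR-222 are best known as inhibitors of Cdkn1b, which encodes p27, a protein that holds cells out of the division cycle. Cdkn1c (p57), a close relative of p27, and Kit, the receptor for stem cell factor on melanocytes and mast cells, are also known targets. Both miRNAs are high in many human carcinomas, and they are also found in endothelial and vascular smooth muscle cells.

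The deposited table places the arms on chromosome X in the mm9 build, miR-221-3p at chrX:18723432-18723456, miR-221-5p at chrX:18723469-18723496, miR-222-3p at chrX:18724028-18724050 and miR-222-5p at chrX:18724065-18724087. In RefSeq (GRCm38.p6) both hairpins lie on the minus strand and 504 bases apart, Mir221 at chrX:19146294-19146388 and Mir222 at chrX:19146893-19146971. No other gene of GENCODE M21 (GRCm38) overlaps them. The nearest one, Gm14636, a noncoding transcript, lies 10010 bases away on the same strand. The RefSeq hairpins are shown because both arms counted here come from them, with the annotated mature arms in capitals.
Mir221 hairpin: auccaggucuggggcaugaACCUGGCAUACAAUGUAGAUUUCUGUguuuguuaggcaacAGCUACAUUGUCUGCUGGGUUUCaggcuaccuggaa
Mir222 hairpin: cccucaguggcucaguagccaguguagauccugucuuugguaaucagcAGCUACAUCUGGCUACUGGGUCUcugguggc

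RefSeq mature sequences matched 3 of the 4 members. They are printed 5′ to 3′ with the seed in capitals, since the seed decides which members can share targets.
miR-221-3p: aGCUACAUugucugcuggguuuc
miR-222-3p: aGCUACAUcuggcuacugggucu
miR-221-5p: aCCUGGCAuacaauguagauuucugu
The 3p arms were identical over their first 8 bases and at 11 of 23 positions when aligned from the first base. miR-221-5p has a different seed, which no other RefSeq mature mouse miRNA carries. The seed of the 3p arms was shared with 1 further mouse miRNA of the RefSeq table, miR-1928.

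The letters ATGTAGC, the complement of the shared seed, were searched on the sense strand of the longest annotated 3′ untranslated region of each gene in GENCODE M21, to show what the pair could recognise in its known targets. They occur in 9.47% of 20981 such regions. Cdkn1b, on chromosome 6, holds 1 match, at bases 2357 to 2363 of 3439, and 23.2% of the 987 regions within 10% of that length hold one. Cdkn1c, on chromosome 7, holds 1 match in 688 bases (4.97% of 1087 regions of similar length), and Kit, on chromosome 5, holds 2 in 2177 bases (15.1% of 1345). The matches are in capitals below, each within 28 bases of the transcript sequence.
Cdkn1b: ctaaaagcattggATGTAGCattgcgca
Cdkn1c: ggacctttcgttcATGTAGCaggaaccg
Kit, first match: tgatgggagatatATGTAGCaagactag
Kit, second match: tgtaaatattgaaATGTAGCaataatgt
These matches are a description of the letters, and the abundance of these mRNAs was not measured in these libraries.

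Libraries held 2884177 to 4921719 mature miRNA reads in healthy skin, 3142228 to 6904298 where it was hyperplastic, 1060615 to 2370313 in papilloma and 1614803 to 2903657 in cSCC. Levels are given as counts per 1000000 reads (CPM) after scaling by TMM factors, which correct library sizes for composition, and differences as log2 fold changes ± SE from edgeR's quasi-likelihood test on 850 miRNAs, with Benjamini-Hochberg adjusted p-values and 0.05 as the threshold. Scaling matters for the comparisons with treated or untreated skin. With factors from the 293 miRNAs that averaged 50 CPM or more, the log2 fold changes of all 850 miRNAs lay higher by a median of 0.66 for papilloma and 0.71 for cSCC against healthy skin, and by 0.05 for cSCC against papilloma. Values from that second scaling, which was chosen after the data were seen, stand beside the first below as the abundant-miRNA scaling. The labelled tissue was checked with 4 miRNAs of keratinocytes (miR-203-3p, miR-205-5p, miR-200c-3p and miR-141-3p), whose summed level was 71621 to 243509 CPM over the libraries.

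Both 3p arms were about 3-fold higher in cSCC than in papilloma, and that difference passed under both scalings. miR-221-3p stood at 1960, 2251, 1393, 4764 and 1004 CPM in cSCC 1, 2, 3, 4 and 6, against 1020, 312, 932, 827 and 581 CPM in papilloma 1, 3, 4, 5 and 6. Papilloma 1, the highest papilloma, lay just above cSCC 6, the lowest carcinoma, and the other libraries of the 2 groups did not overlap. The means were 2274 ± 1474 CPM in cSCC and 734 ± 288 CPM in papilloma (SD, n = 5 each), and miR-221-3p rose by a log2 fold change of 1.63 ± 0.38 SE (3.10-fold, edgeR adjusted p = 0.00595). A biopsy mixes cell types, and in bulk RNA fewer cells of a type cannot be told apart from less RNA in each.

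miR-222-3p stood at 1454, 1836, 763, 2534 and 791 CPM in cSCC 1, 2, 3, 4 and 6, against 549, 446, 557, 416 and 459 CPM in papilloma 1, 3, 4, 5 and 6. Each carcinoma lay above each papilloma. The means were 1476 ± 746 CPM in cSCC and 486 ± 63.5 CPM in papilloma (SD, n = 5 each), and the log2 fold change was 1.60 ± 0.34 (3.04-fold, edgeR adjusted p = 0.00238). Of the 4 members 2 rose in this comparison, where 6.82% of the 850 tested miRNAs rose, and 1.88% of them had every carcinoma above every papilloma.

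The rise of the 3p arms held under the abundant-miRNA scaling, with log2 fold changes of 1.63 ± 0.36 for miR-221-3p (edgeR adjusted p = 0.00391) and 1.63 ± 0.31 for miR-222-3p (edgeR adjusted p = 0.00157). In that scaling 6.94% of the miRNAs rose. The rise also passed the test without each of the 10 libraries in turn. The smallest estimates came without cSCC 4, at 1.29 for miR-221-3p (edgeR adjusted p = 0.0226) and 1.44 for miR-222-3p (edgeR adjusted p = 0.0062). Together the 3p arms made up 0.353, 0.492, 0.197, 0.598 and 0.227% of mature miRNA reads in cSCC 1, 2, 3, 4 and 6, against 0.157, 0.0857, 0.203, 0.156 and 0.173% in papilloma 1, 3, 4, 5 and 6. On this share, which uses no scaling factor, cSCC 3 lay just below papilloma 4 and the other carcinomas above all papillomas.

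**Figure D1:**
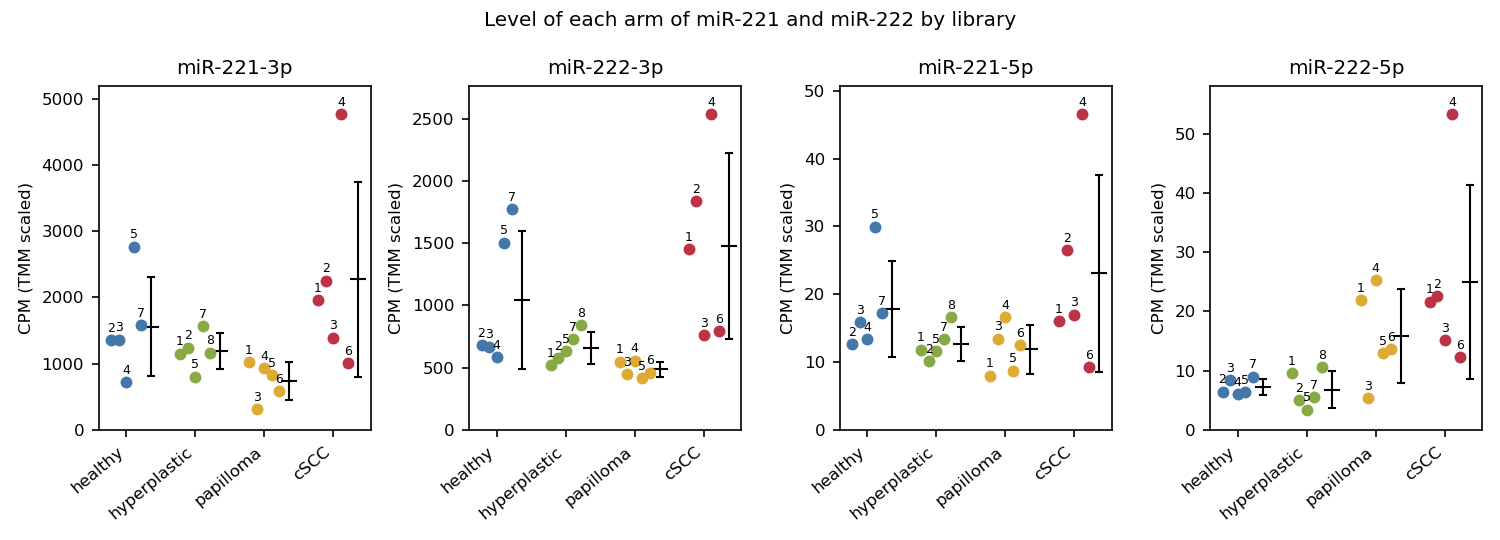
Level of each arm by library in CPM (TMM scaled, linear axes from 0), with the replicate number beside each point and the mean ± SD of 5 libraries at the right of each group. The 3p arms are lowest in papilloma (means of 734 and 486 CPM) and highest in cSCC (2274 and 1476 CPM) under this scaling, with cSCC 4 at the top of all 4 panels, while miR-222-5p averages more in both tumour stages (15.8 and 24.9 CPM) than in either kind of skin (7.23 and 6.79 CPM).

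The carcinomas differed widely among themselves. cSCC 4 was the highest carcinoma for all 4 members, at 4764 CPM for miR-221-3p, 2534 for miR-222-3p, 46.5 for miR-221-5p and 53.2 for miR-222-5p. cSCC 6 was the lowest for 3 of the 4, and cSCC 3 for miR-222-3p. The SD of log2 CPM among carcinomas was 0.84 for miR-221-3p and 0.76 for miR-222-3p, where the median over the 850 miRNAs was 0.56. Papillomas were close to each other in miR-222-3p (SD 0.19, median of all miRNAs 0.51) but not in miR-221-3p (SD 0.70), for which papilloma 3 lay far below the rest. Without cSCC 4 the carcinomas averaged 1652 ± 560 CPM of miR-221-3p and 1211 ± 525 CPM of miR-222-3p (SD, n = 4).

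Set against healthy skin, the 3p arms gave answers that turn on the scaling. miR-221-3p had 1355, 1365, 720, 2765 and 1581 CPM in healthy 2, 3, 4, 5 and 7, with a mean of 1557 ± 748 CPM (SD, n = 5). miR-222-3p had 680, 667, 585, 1505 and 1776 CPM in the same libraries, with a mean of 1043 ± 555 CPM. Healthy skin was thus itself uneven, with healthy 5 and 7 standing above the other libraries in miR-222-3p. Against this background both 3p arms fell in papilloma, miR-221-3p by a log2 fold change of -1.08 ± 0.38 (0.472-fold, edgeR adjusted p = 0.0237) and miR-222-3p by one of -1.10 ± 0.33 (0.466-fold, edgeR adjusted p = 0.0107). Every papilloma lay below every healthy library in miR-222-3p, and the groups overlapped in miR-221-3p. Of the 4 members 2 fell, where 20.7% of the 850 miRNAs fell and 14.7% had all papillomas below all healthy libraries. The call for miR-221-3p ended without healthy 5 (-0.87, edgeR adjusted p = 0.0743) or papilloma 3 (-0.93, edgeR adjusted p = 0.0526). Under the abundant-miRNA scaling, where 8.59% of miRNAs fell, neither passed, at -0.38 ± 0.35 (edgeR adjusted p = 0.352) and -0.40 ± 0.31 (edgeR adjusted p = 0.262). The depths of the 2 groups do not overlap either, and depth and lesion cannot be told apart here.

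For cSCC against healthy skin the pattern was the reverse: no call for the 3p arms at first and a rise under the second scaling. The mean of miR-221-3p was 2274 ± 1474 CPM in cSCC, against 1557 ± 748 CPM in healthy libraries (log2 fold change 0.55 ± 0.37, edgeR adjusted p = 0.226). That of miR-222-3p was 1476 ± 746 CPM in cSCC, against 1043 ± 555 CPM in healthy libraries (0.50 ± 0.33, edgeR adjusted p = 0.207). The groups overlapped in both. With the abundant-miRNA scaling miR-221-3p rose by 1.26 ± 0.35 (edgeR adjusted p = 0.0043) and miR-222-3p by 1.23 ± 0.31 (edgeR adjusted p = 0.00187), where 53.1% of all tested miRNAs rose. Under the first scaling the estimates without cSCC 4 were -0.03 for miR-221-3p (edgeR adjusted p = 0.951) and 0.11 for miR-222-3p (edgeR adjusted p = 0.805).

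Hyperplastic skin showed no passing change in any member against healthy skin. miR-221-3p had 1151, 1243, 805, 1566 and 1165 CPM in hyperplastic 1, 2, 5, 7 and 8, with a mean of 1186 ± 271 CPM, against 1557 ± 748 CPM in healthy libraries (SD, n = 5 each; log2 fold change -0.39 ± 0.37, edgeR adjusted p = 0.76). miR-222-3p had 517, 575, 630, 728 and 843 CPM in the same libraries, with a mean of 659 ± 129 CPM, against 1043 ± 555 CPM in healthy skin (-0.66 ± 0.33, edgeR adjusted p = 0.567). The 5p arms had estimates of -0.49 ± 0.35 for miR-221-5p and -0.11 ± 0.42 for miR-222-5p. In edgeR's quasi-likelihood test 0 of 4 members passed, 0 had an unadjusted p under 0.05 and DESeq2 called 0; of all 850 miRNAs 0 passed (0%), with 75 at an unadjusted p under 0.05. The SD of log2 CPM of miR-222-3p was 0.28 in hyperplastic skin, against 0.75 in healthy skin.

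cSCC stood above hyperplastic skin in both 3p arms. miR-222-3p averaged 1476 ± 746 CPM in cSCC and 659 ± 129 CPM in hyperplastic skin (SD, n = 5 each) and rose by a log2 fold change of 1.16 ± 0.33 (2.24-fold, edgeR adjusted p = 0.00648). miR-221-3p averaged 2274 ± 1474 CPM in cSCC and 1186 ± 271 CPM in hyperplastic skin and rose by 0.94 ± 0.38 (1.92-fold, edgeR adjusted p = 0.044). Together with miR-222-5p, 3 of 4 members rose here, where 24.5% of the 850 miRNAs rose. Both calls ended without cSCC 4, where the estimates were 0.36 for miR-221-3p (edgeR adjusted p = 0.405) and 0.76 for miR-222-3p (edgeR adjusted p = 0.0626). The call for miR-221-3p also ended without hyperplastic 2 (0.80, edgeR adjusted p = 0.111) or hyperplastic 5 (0.92, edgeR adjusted p = 0.0682). In DESeq2 the value for miR-221-3p did not pass (0.85, adjusted p = 0.0677), and with no filter neither arm did (0.59 and 0.82, edgeR adjusted p = 0.246 and 0.0632). The abundant-miRNA scaling, where 43.4% of miRNAs rose, gave larger values, 1.53 ± 0.36 (edgeR adjusted p = 0.00117) for miR-221-3p and 1.79 ± 0.32 (edgeR adjusted p = 7.39e-05) for miR-222-3p.

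Cell type miRNAs also moved in cSCC against hyperplastic skin, where 24.5% of all miRNAs rose and 20.5% fell. Of the leukocyte miRNAs miR-142-3p, miR-142-5p, miR-150-5p and miR-223-3p, the last (2.52 ± 0.37, edgeR adjusted p = 7.9e-06) and miR-142-5p (1.59 ± 0.35, edgeR adjusted p = 0.000709) rose and miR-150-5p fell (-1.23 ± 0.39, edgeR adjusted p = 0.012), with summed levels of 47619 to 109473 CPM in cSCC and 9620 to 22769 CPM in hyperplastic skin. All 4 smooth muscle arms (of miR-143 and miR-145) fell, as did all 4 striated muscle miRNAs (miR-1a-3p, miR-133a-3p, miR-133b-3p and miR-206-3p), 2 of 3 fibroblast arms (of miR-199a and miR-214) and both melanocyte miRNAs (miR-204-5p and miR-211-5p). So did 1 of 2 endothelial arms (of miR-126) and 1 of 4 keratinocyte miRNAs. Smooth muscle sums were 13918 to 24383 CPM in cSCC and 36848 to 83556 CPM in hyperplastic skin. Striated muscle sums were 1561 to 3616 CPM in cSCC and 16448 to 49894 CPM in hyperplastic skin. Fibroblast sums were 5428 to 16750 CPM in cSCC and 17861 to 43850 CPM in hyperplastic skin. Melanocyte sums were 67.6 to 147 CPM in cSCC and 950.5 to 2712 CPM in hyperplastic skin. Under the abundant-miRNA scaling 43.4% of miRNAs rose and 9.65% fell in this comparison. There the falls of miR-206-3p, miR-143-5p, miR-145-3p, both miR-199a arms, miR-126-5p and miR-150-5p did not pass (edgeR adjusted p from 0.0665 to 0.8). The other falls held, and miR-142-3p also rose (1.13 ± 0.35, edgeR adjusted p = 0.00891). The part of these cells in the change of the 3p arms was not tested.

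Papilloma against hyperplastic skin gave no call for the 3p arms, with log2 fold changes of -0.69 ± 0.38 for miR-221-3p (edgeR adjusted p = 0.149) and -0.44 ± 0.33 for miR-222-3p (edgeR adjusted p = 0.306), and the sign of the second turned under the abundant-miRNA scaling (0.16 ± 0.31). By mean CPM both 3p arms thus ran from papilloma, the lowest, through hyperplastic and healthy skin to cSCC. Neighbours in that order did not pass the test: papilloma and hyperplastic skin, hyperplastic and healthy skin, and, under the first scaling, healthy skin and cSCC. Tested across the 4 groups at once, 3 of 4 members differed, where 56% of the 850 miRNAs did: miR-222-5p (edgeR adjusted p = 0.000679), miR-222-3p (edgeR adjusted p = 0.00106) and miR-221-3p (edgeR adjusted p = 0.00566). miR-221-5p did not pass (edgeR adjusted p = 0.0688).

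**Figure D2:**
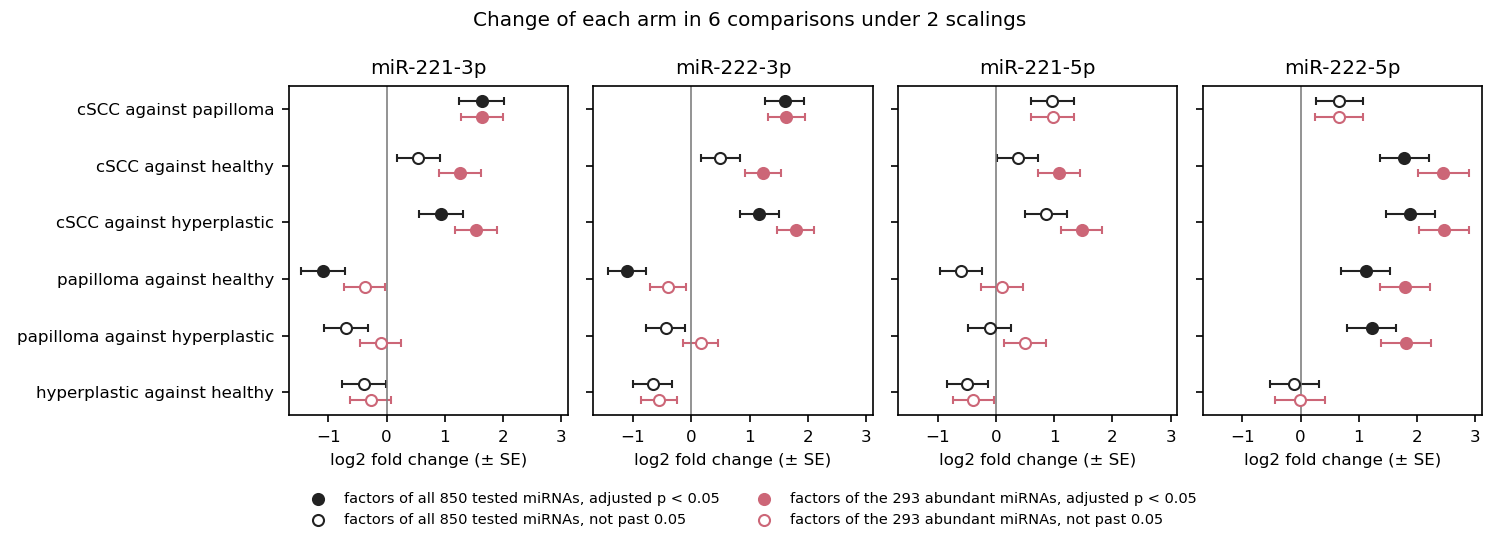
Log2 fold change ± SE of each arm in the 6 comparisons under 2 scalings, TMM factors of all 850 tested miRNAs (black) and of the 293 abundant ones (red), with filled points past an adjusted p of 0.05. The rise of the 3p arms in cSCC against papilloma is nearly the same in both (1.63 and 1.63 for miR-221-3p), whereas the comparisons of either tumour with healthy skin shift to the right under the second scaling.

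The 5p arms, the strands that are usually degraded, were far rarer. miR-221-5p had 19 to 104 reads per library and miR-222-5p 13 to 119, against 765 to 10648 for miR-221-3p and 810 to 5665 for miR-222-3p. By mean level the members ranked 73 (miR-221-3p), 93 (miR-222-3p), 424 (miR-221-5p) and 452 (miR-222-5p) of 1137 mature miRNAs. Relative to the level, counting error is therefore larger in the 5p arms, and it is part of the spread given for them.

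The order of the stages was another for miR-222-5p, with both tumours above both kinds of skin by mean level. It had 21.6, 22.5, 15.1, 53.2 and 12.2 CPM in cSCC 1, 2, 3, 4 and 6 and 21.9, 5.30, 25.2, 12.9 and 13.6 CPM in papilloma 1, 3, 4, 5 and 6. Healthy 2, 3, 4, 5 and 7 had 6.44, 8.40, 5.97, 6.38 and 8.97 CPM. Every carcinoma lay above every healthy library, and so did every papilloma except papilloma 3. The unscaled reads were also more numerous in the shallower tumour libraries, with means of 59.6 in cSCC and 34 in papilloma, against 23.2 in healthy skin.

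The mean of miR-222-5p was 24.9 ± 16.4 CPM in cSCC and 7.23 ± 1.35 CPM in healthy skin (SD, n = 5 each), and it rose by a log2 fold change of 1.78 ± 0.42 (3.43-fold, edgeR adjusted p = 0.00118). It was the only member called in this comparison under the first scaling, where 26.2% of the 850 miRNAs rose and 12.8% had all carcinomas above all healthy libraries. Without cSCC 4 the rise was 1.17 (edgeR adjusted p = 0.0187). Against hyperplastic skin, which had 9.52, 4.97, 3.42, 5.48 and 10.6 CPM in replicates 1, 2, 5, 7 and 8, all carcinomas again lay higher, as for 12.7% of the miRNAs, and the log2 fold change was 1.89 ± 0.42 (3.69-fold, edgeR adjusted p = 0.000804; 1.28 without cSCC 4, edgeR adjusted p = 0.0111). With the abundant-miRNA scaling the rise in cSCC was 2.45 ± 0.43 against healthy skin (edgeR adjusted p = 6.69e-05), where 53.1% of miRNAs rose, and 2.46 ± 0.43 against hyperplastic skin (edgeR adjusted p = 6.94e-05), where 43.4% did.

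In papilloma miR-222-5p averaged 15.8 ± 7.90 CPM, against 7.23 ± 1.35 CPM in healthy skin (SD, n = 5 each), a rise of 1.11 ± 0.42 (2.17-fold, edgeR adjusted p = 0.0342) where 24% of the miRNAs rose. This call was fragile under the first scaling. It held without papilloma 3 (1.31, edgeR adjusted p = 0.0138) and ended without each of the other 9 libraries, healthy 2, 3, 4, 5 or 7 and papilloma 1, 4, 5 or 6, with values from 0.69 to 1.11 and edgeR adjusted p from 0.0568 to 0.229. The refits filter and scale the libraries anew. Under the abundant-miRNA scaling it rose by 1.79 ± 0.43 (edgeR adjusted p = 0.00177), where 50.1% of the miRNAs rose.

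Against hyperplastic skin, with 6.79 ± 3.09 CPM, the rise of miR-222-5p in papilloma was 1.22 ± 0.42 (2.33-fold, edgeR adjusted p = 0.0249), where 21.3% of the miRNAs rose. That call ended without papilloma 1 or 4 and without hyperplastic 2, 5 or 7, with edgeR adjusted p of 0.0629, 0.102, 0.124, 0.0616 and 0.056 and log2 fold changes of 1.06, 0.93, 0.89, 1.06 and 1.18 in that order. Under the abundant-miRNA scaling, where 37.6% rose, the value was 1.81 ± 0.43 (edgeR adjusted p = 0.00229). cSCC and papilloma did not pass against each other in this arm (0.67 ± 0.41, edgeR adjusted p = 0.384).

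miR-221-5p lay closer to the 3p arms. It had 16.0, 26.5, 17.0, 46.5 and 9.29 CPM in cSCC 1, 2, 3, 4 and 6, against 8.0, 13.5, 16.6, 8.71 and 12.5 CPM in papilloma 1, 3, 4, 5 and 6. The groups overlapped, and the log2 fold change of 0.97 ± 0.37 did not pass (edgeR adjusted p = 0.0967). It passed without papilloma 4 (1.25, edgeR adjusted p = 0.0479) or cSCC 6 (1.24, edgeR adjusted p = 0.0202). Against healthy skin, with 12.6, 15.9, 13.3, 30.0 and 17.3 CPM in replicates 2, 3, 4, 5 and 7, the estimates were 0.37 ± 0.35 for cSCC and -0.60 ± 0.36 for papilloma (edgeR adjusted p = 0.392 and 0.177). The value for cSCC passed under the abundant-miRNA scaling (1.08 ± 0.35, edgeR adjusted p = 0.0115), where 53.1% of miRNAs rose. That for papilloma turned sign there (0.11 ± 0.36). Under the first scaling the value for cSCC turned to -0.15 without cSCC 4. Hyperplastic 1, 2, 5, 7 and 8 had 11.8, 10.1, 11.6, 13.4 and 16.6 CPM, and against them the estimate for cSCC, 0.86 ± 0.36, did not pass (edgeR adjusted p = 0.0507; 1.47 ± 0.36 under the abundant-miRNA scaling, edgeR adjusted p = 0.00169). Under that second scaling 43.4% of miRNAs rose in cSCC against hyperplastic skin.

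Ratios of reads within a library do not depend on scaling, and 3 of them were compared between groups in 18 exact two-sided permutation tests over all splits of 5 against 5 libraries, whose smallest possible p is 0.00794. For the ratio of miR-221-3p to miR-222-3p no test passed. Healthy skin had a median of 1.84, hyperplastic skin 2.15, papilloma 1.67 and cSCC 1.35, and the smallest exact permutation p was 0.222, for cSCC against hyperplastic skin (adjusted p = 0.5). For cSCC against papilloma the log2 difference was 0.08, with group means of 0.57 ± 0.30 in cSCC and 0.49 ± 0.61 in papilloma (SD, n = 5 each, exact permutation p = 0.817). The group means thus differed by less than the spread between libraries in all 6 comparisons, although the ratio itself ran from 0.699 in papilloma 3 to 2.22 in hyperplastic 1. In papilloma 3 and healthy 7 miR-222-3p outnumbered miR-221-3p, and in the other 18 libraries miR-221-3p was the more numerous.

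Among the 3 ratios, that of miR-222-3p to miR-222-5p had the widest range of group means. Each read of miR-222-5p stood beside 66.7, 80.9, 49.9, 47.4 and 63.5 reads of miR-222-3p in cSCC 1, 2, 3, 4 and 6 and beside 24.8, 81.1, 21.8, 31.9 and 33.1 in papilloma 1, 3, 4, 5 and 6. In healthy 2, 3, 4, 5 and 7 the ratio was 104, 78.1, 95.2, 230.2 and 194, and in hyperplastic 1, 2, 5, 7 and 8 it was 53.5, 114, 178, 131 and 78.7. Of the papillomas 4 lay below every library of the other stages, and papilloma 3 lay among them. The log2 ratio averaged 5.09 ± 0.74 in papilloma and 7.0 ± 0.68 in healthy skin (SD, n = 5 each), a difference of -1.91 with an exact permutation p = 0.0159 and an adjusted p = 0.143 over the 18 tests. For cSCC (5.92 ± 0.32) the difference from healthy skin was -1.08, with the same exact permutation p = 0.0159 and adjusted p = 0.143. Between papilloma and hyperplastic skin (6.67 ± 0.67) it was -1.58 (exact permutation p = 0.0238, adjusted p = 0.143). None of these passed the correction. As a share of the reads of both arms, miR-222-5p made up 1.64 ± 0.35% in cSCC, 3.05 ± 1.21% in papilloma and 0.823 ± 0.349% in healthy skin.

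For miR-221 the ratio of the 3p to the 5p arm had a median of 90.7 in healthy libraries, 96.1 in hyperplastic ones, 55.1 in papilloma and 102 in cSCC. Its smallest exact permutation p was 0.135, for cSCC against papilloma (log2 difference 0.75, adjusted p = 0.405). Papilloma 3 had the lowest ratio, 22.9, and papilloma 1 the highest, 124, so that papillomas spanned the range of all libraries.

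**Figure D3:**
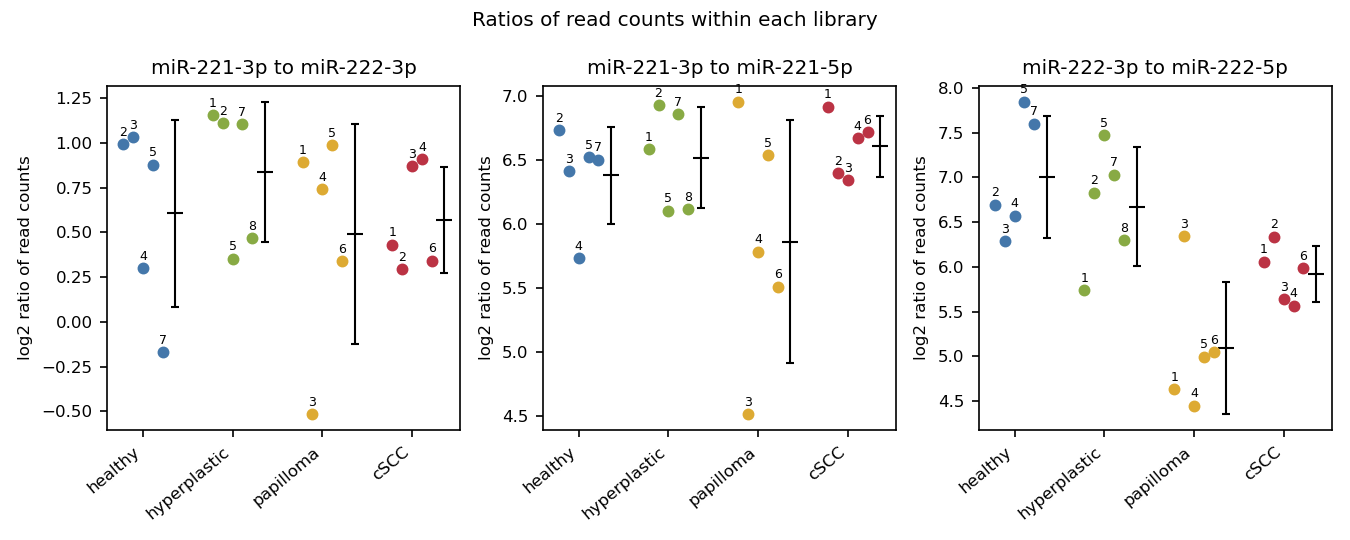
Log2 ratio of read counts within each library (pseudocount 0.5 in both counts), with the replicate number beside each point and the mean ± SD of 5 libraries at the right of each group. The ratio of miR-221-3p to miR-222-3p overlaps across all stages, while that of miR-222-3p to miR-222-5p is lowest in 4 of the 5 papillomas, with papilloma 3 at 6.34 among the other stages.

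miR-1928, the further miRNA with the seed of the 3p arms, was close to the detection limit, with 2 to 19 reads per library. It averaged 3.94 ± 2.53 CPM in cSCC and 5.36 ± 2.33 CPM in papilloma (SD, n = 5 each; log2 fold change -0.41 ± 0.53, edgeR adjusted p = 0.732). By comparison miR-221-3p and miR-222-3p together summed to 3750 ± 2190 CPM in cSCC and 1220 ± 332 CPM in papilloma. Seeds were compared for the 649 of 850 tested miRNAs that the RefSeq table holds. miR-1928 rose in papilloma against hyperplastic skin (1.38 ± 0.53, edgeR adjusted p = 0.0427), on 8 to 16 reads in papilloma and 2 to 13 in hyperplastic skin, where 21.3% of miRNAs rose. Under the abundant-miRNA scaling that rise was 1.96 ± 0.58 (edgeR adjusted p = 0.0103), where 37.6% of miRNAs rose. The same scaling also called miR-1928 in papilloma against healthy skin (1.52 ± 0.58, edgeR adjusted p = 0.0279) and in cSCC against hyperplastic skin (1.58 ± 0.59, edgeR adjusted p = 0.0278). In these 2 comparisons 50.1% and 43.4% of all tested miRNAs rose under it.

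Other miRNAs have been reported to restrain p27 in at least 1 cell system, and a list of 5 of them was set beside the pair. The list did not rise in cSCC against papilloma: 0 of 5 passed edgeR's test, 0 had an unadjusted p under 0.05, DESeq2 called 0, and the median log2 fold change was -0.34, where it was -0.12 over all 850 miRNAs. miR-24-3p, which also targets cell cycle genes, averaged 39805 ± 10390 CPM in cSCC and 54555 ± 12557 CPM in papilloma (SD, n = 5 each; -0.45 ± 0.22, edgeR adjusted p = 0.241). It was thus more abundant than the pair in both tumours. Of miR-181a-5p, known from lymphocytes, there were 1813 ± 736 CPM in cSCC and 2301 ± 729 CPM in papilloma (-0.34 ± 0.29, edgeR adjusted p = 0.547). miR-148a-3p and miR-152-3p, which share a seed with each other but not with the pair, had estimates of 0.18 ± 0.23 and 0.04 ± 0.28. miR-196a-5p, from the Hox clusters, was the most variable, at 4.42 to 320 CPM in cSCC and 38.0 to 306 CPM in papilloma (-0.44 ± 0.92).

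Against healthy skin 3 of the 5 fell in cSCC, where 21.3% of all miRNAs fell, miR-181a-5p by -1.41 ± 0.30 (edgeR adjusted p = 0.000447), miR-24-3p by -1.06 ± 0.23 (edgeR adjusted p = 0.000501) and miR-152-3p by -0.82 ± 0.28 (edgeR adjusted p = 0.017). Under the abundant-miRNA scaling, where 12% fell, the values were -0.74 for miR-181a-5p (edgeR adjusted p = 0.0148), -0.35 for miR-24-3p (edgeR adjusted p = 0.0485) and -0.11 for miR-152-3p (edgeR adjusted p = 0.682). The same 3 fell in papilloma against healthy skin, where 20.7% of miRNAs fell, miR-181a-5p by -1.06, miR-152-3p by -0.87 and miR-24-3p by -0.60 (edgeR adjusted p = 0.00611, 0.0152 and 0.033 in that order), and none of them passed under the abundant-miRNA scaling (-0.45, -0.22 and 0.04), where 8.59% fell. Against hyperplastic skin 3 of 5 fell in cSCC (miR-24-3p, miR-152-3p and miR-181a-5p), where 20.5% of the miRNAs fell, and 3 of 5 in papilloma (miR-148a-3p, miR-152-3p and miR-181a-5p), where 17.1% fell. With the abundant miRNAs alone these counts were 1 and 0, where 68 and 41 of all 293 fell.

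Of 4 leukocyte miRNAs 2 rose with the 3p arms in cSCC against papilloma, where 6.82% of all miRNAs rose. The summed level of the 4 (miR-142-3p, miR-142-5p, miR-223-3p and miR-150-5p) ran from 47619 to 109473 CPM in cSCC and from 14898 to 60579 CPM in papilloma. Most of that sum was miR-223-3p, which averaged 31165 CPM over the 20 libraries, against 442 to 2702 CPM for the other 3. Of the list, miR-142-5p rose by 1.65 ± 0.35 (edgeR adjusted p = 0.00239) and miR-223-3p by 1.53 ± 0.36 (edgeR adjusted p = 0.00599), while miR-142-3p (0.61 ± 0.37) and miR-150-5p (-0.98 ± 0.39) did not pass. By library the leukocyte sums were 47619, 79036, 76936, 53220 and 109473 CPM in cSCC 1, 2, 3, 4 and 6. Their part in the rise was not tested.

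The endothelial arms miR-126-3p and miR-126-5p summed to 8811 to 19035 CPM in cSCC and 9862 to 15936 CPM in papilloma. Of the 2 arms 0 passed between the tumours in edgeR or DESeq2, and 0 had an unadjusted p under 0.05, and the same held for the 4 smooth muscle and the 3 fibroblast arms. Smooth muscle miRNAs (miR-143 and miR-145, 4 arms) summed to 13918 to 24383 CPM in cSCC and 16240 to 26115 CPM in papilloma. Striated muscle miRNAs (miR-1a-3p, miR-133a-3p, miR-133b-3p and miR-206-3p) summed to 1561 to 3616 CPM in cSCC and 1753 to 9174 CPM in papilloma, with 1 of 4 lower (miR-133a-3p, -1.36 ± 0.41, edgeR adjusted p = 0.0314), where 4.71% of all miRNAs were lower. The 3 fibroblast arms of miR-199a and miR-214 ran from 5428 to 16750 CPM in cSCC and from 11763 to 16967 CPM in papilloma. Both melanocyte miRNAs, miR-204-5p and miR-211-5p, were lower, with sums of 67.6 to 147 CPM in cSCC and 215 to 862 CPM in papilloma, and of the 4 keratinocyte miRNAs 1 was lower, miR-203-3p by -1.59 ± 0.26 (edgeR adjusted p = 0.000279). No member of these lists was at 0 in any library, and their part in the result was not tested.

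Members of 6 of the 7 cell type lists fell with the 3p arms in papilloma against healthy skin, where 20.7% of all miRNAs fell. Endothelial sums were 9862 to 15936 CPM in papilloma and 23610 to 43320.4 CPM in healthy skin, and 2 of 2 arms fell. Smooth muscle sums were 16240 to 26115 CPM in papilloma and 53670 to 110487 CPM in healthy skin, and 4 of 4 arms fell. Striated muscle, with 4 of 4 lower, ran from 1753 to 9174 CPM in papilloma and from 19320 to 77335 CPM in healthy skin. Of the 3 fibroblast arms 2 fell, miR-199a-3p by -1.30 and miR-199a-5p by -1.21, and the sums were 11763 to 16967 CPM in papilloma and 19545 to 49332 CPM in healthy skin. Of the 4 leukocyte miRNAs 2 fell, miR-150-5p by -1.17 and miR-142-5p by -1.05, with sums of 14898 to 60579 CPM in papilloma and 18551 to 35817 CPM in healthy skin. Of the melanocyte pair miR-204-5p fell by -1.72, with sums of 215 to 862 CPM in papilloma and 687 to 2197 CPM in healthy skin. Of the 4 keratinocyte miRNAs 0 were called by edgeR or DESeq2, and 0 had an unadjusted p under 0.05. Healthy 5 and 7, the highest healthy libraries for both 3p arms, also had the highest endothelial sums, 43320.4 and 37708 CPM. The same held for the smooth muscle sums, 110487 and 109592 CPM. It held as well for the fibroblast sums (49332 and 45764 CPM) and the leukocyte sums (35817 and 27668 CPM). Striated muscle, melanocyte and keratinocyte sums did not have both of these libraries at the top, though healthy 5 had the highest keratinocyte sum (243509 CPM). The part of these cells in the fall was not tested. All these sums and the 3p levels share the TMM factor of their library, which was 0.637 in healthy 5, the lowest in healthy skin. A low factor raises every CPM value of its library, and its part in the shared order was not tested. Under the abundant-miRNA scaling, where 8.59% of miRNAs fell, all 4 striated muscle miRNAs fell, by -2.70 to -2.57 (edgeR adjusted p from 4.84e-05 to 0.00136). So did 1 endothelial arm, miR-126-3p (-1.13 ± 0.26, edgeR adjusted p = 0.00125), 3 of the 4 smooth muscle arms and miR-204-5p (-1.12 ± 0.30, edgeR adjusted p = 0.00357). No fibroblast arm passed, nor did miR-150-5p or miR-142-5p, and miR-223-3p rose (1.17 ± 0.40, edgeR adjusted p = 0.015).

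The miRNAs with profiles most like the 3p arms were sought among the 293 candidates with a mean of at least 50 CPM, by the root mean square difference of log2 CPM over the 20 libraries after each miRNA was centred on its own mean. Libraries share depth and stage in this measure, and it is given as a description. The nearest to each 3p arm was the other one, at 0.44 (log2), where the median over all candidates was 1.05 for miR-221-3p and 1.03 for miR-222-3p. Next to miR-221-3p came miR-532-5p at 0.59, miR-2137 at 0.60, miR-1306-5p at 0.63 and miR-99b-3p at 0.64. Next to miR-222-3p came miR-532-5p at 0.49, miR-669a-3p at 0.49, miR-99b-5p at 0.54 and miR-7a-1-3p at 0.56. miR-669a-3p belongs to a family of near-identical miRNAs whose reads may have been shared. With candidates down to 10 CPM, miR-221-5p was the second nearest to miR-221-3p (0.57) and the nearest to miR-222-3p (0.44), and miR-222-5p was not among the 5 nearest to either.

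**Figure D4:**
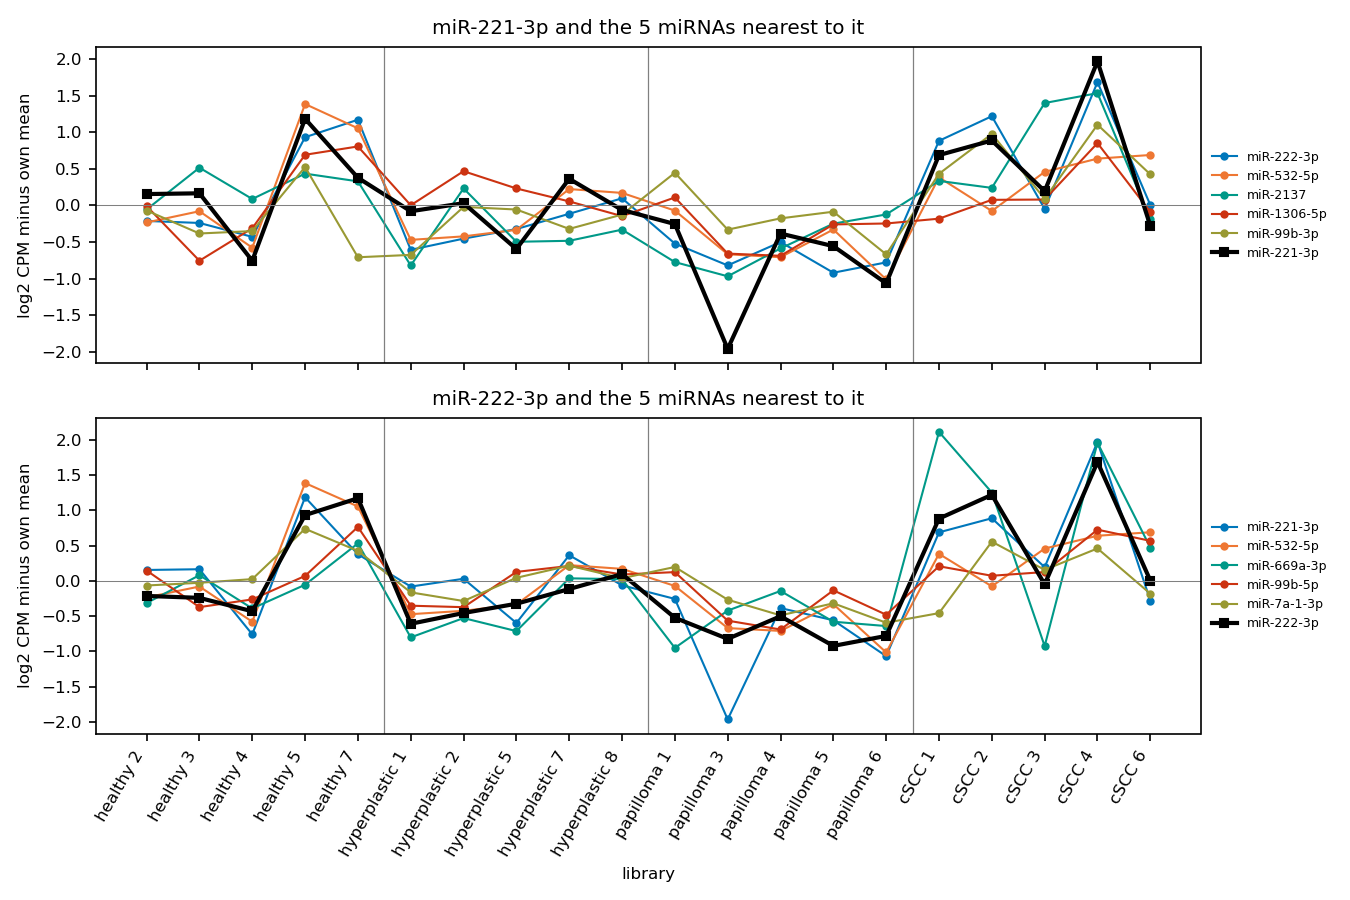
Log2 CPM minus each miRNA's own mean in the 20 libraries, for miR-221-3p (upper, black) and miR-222-3p (lower, black) with the 5 miRNAs at the smallest root mean square difference, with stages separated by vertical lines. The black lines dip in papilloma under this scaling and peak in cSCC 4, and miR-221-3p stands apart from the others in papilloma 3.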

How the data were processed

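Per the labels, RNA was extracted with a Qiagen miRNeasy kit, and NEBNext SOLiD libraries were size-selected on gels. The deposited table holds unnormalized read counts per feature and library. The build is mm9, per the submitters' processing notes. Which aligner and counter were used, and how multi-mapping reads were treated, is not given in the sources used here. Columns were matched to samples by title and grouped by the stage in the labels.

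Of 1137 mature miRNAs, 850 passed edgeR's filterByExpr, all 4 members among them. Their counts were scaled by TMM factors and fitted with edgeR 4.0.16 (R 4.3.3, quasi-likelihood F test, 1 term per group, 20 libraries, 6 comparisons). SEs come from the F statistic, and p-values were adjusted over all tested miRNAs. CPM values use the TMM-scaled library sizes, and likeness used log2 CPM with a prior count of 2. The script was tested on simulated counts. Alternatives were other scalings and filters, DESeq2 1.42.0, the 2 groups alone, a replicate block and leaving out each library. Members, lists, tests and the rule for named miRNAs (all members, the 5 nearest profiles, listed p27 regulators and seed relatives) were chosen with earlier results of these data known. Ratios used counts plus 0.5. Cell type markers served to describe the biopsies.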

Additional observations from a re-analysis of the deposited data

Results flagged for a closer look

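In 2 of 28 sets of 5 libraries (4 members and 3 ratios in 4 stages) a library lay far from the others by Dixon's criterion, and chance gives about 1 in 20. Levels entered as TMM-scaled CPM, and the criterion was not applied to levels without a scaling factor. Healthy 5 had the highest miR-221-5p of healthy skin, at 29.97 CPM, where the other 4 healthy libraries had 12.6 to 17.3 CPM. It was also the highest healthy library for miR-221-3p. cSCC 4 had the highest miR-222-5p, at 53.24 CPM, where the other 4 carcinomas had 12.2 to 22.5 CPM, and it was the highest carcinoma for the other 3 members too.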

How the results depend on the processing

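Apart from leaving out libraries, 179 values stayed the same under the alternatives, 19 lost a call, 11 gained one, 12 changed sign and 3 counts moved by more than 1.5 times. For tested values, the same means that direction and side of the threshold were kept. Ratios under the replicate block, list counts and likeness distances had no test, and for them it means only a small change. The rise of miR-221-3p and miR-222-3p in cSCC against papilloma passed under all the alternatives. The values below are log2 fold changes, and the cause of each change was not tested. With DESeq2's size factors or in DESeq2 itself, the calls of miR-222-5p in papilloma against healthy skin (0.95 in both) and of miR-221-3p in cSCC against hyperplastic skin (0.85 in both) were lost. With total miRNA counts and no factors, papilloma against healthy skin gave -0.37 for miR-221-3p and -0.41 for miR-222-3p, neither called, and 0.12 for miR-221-5p, of the other sign. The same scaling gave calls in cSCC against healthy skin for miR-221-3p (0.89) and miR-222-3p (0.86) and in cSCC against hyperplastic skin for miR-221-5p (0.94). It turned the sign of miR-222-3p (0.016) and miR-221-5p (0.36) in papilloma against hyperplastic skin and of miR-222-5p (0.11) in hyperplastic against healthy skin. With no filter, miR-221-5p was called in papilloma against healthy skin (-0.99) and miR-221-3p in papilloma against hyperplastic skin (-1.15). Calls were then lost for miR-222-5p in papilloma against healthy skin (0.70) and hyperplastic skin (0.77), and for miR-221-3p (0.59) and miR-222-3p (0.82) in cSCC against hyperplastic skin.

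With the abundant miRNAs alone, and likewise with their factors on all tested miRNAs (chosen after seeing the data), the falls of miR-221-3p (-0.38) and miR-222-3p (-0.40) in papilloma against healthy skin were lost. Both settings called miR-221-3p (1.26) and miR-222-3p (1.23) in cSCC against healthy skin and turned miR-222-3p in papilloma against hyperplastic skin (0.16). The factors on all tested miRNAs also called miR-221-5p in cSCC against healthy (1.08) and hyperplastic skin (1.47), and turned it in papilloma against healthy (0.11) and hyperplastic skin (0.50). Among the abundant miRNAs alone, the listed p27 regulators had 0 calls in edgeR in papilloma against either healthy or hyperplastic skin, and 1 in cSCC against hyperplastic skin. Of all 293 abundant miRNAs, 49.5%, 29.7% and 50.9% were called in these comparisons, in that order. Fitting only the 2 groups compared turned miR-221-5p in papilloma against hyperplastic skin (0.034).

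No label says whether equal replicate numbers mark the same mouse. Over 17 pairs of equal number the correlation of deviations ran from -0.156 to 0.208, and it was over 0.1 in 2. Low correlation cannot show that the mice differed, since biopsies of 1 mouse need not share deviations. With the numbers as a replicate block, calls over all miRNAs went to 80, against 98 without it, in cSCC against papilloma. They went to 82, against 326, in papilloma and to 190, against 382, in cSCC against hyperplastic skin. Against healthy skin they went to 240, against 380, in papilloma and to 294, against 404, in cSCC. Calls in hyperplastic against healthy skin went up, to 4, against 0 without the block. The block ended calls in papilloma against healthy skin for miR-221-3p (-0.98), miR-222-3p (-0.69) and miR-222-5p (0.94), in papilloma against hyperplastic skin for miR-222-5p (1.44), and in cSCC against hyperplastic skin for miR-221-3p (1.17). It turned miR-222-3p (0.12) and miR-221-5p (0.023) in papilloma against hyperplastic skin and the log2 ratio of miR-221-3p to miR-221-5p in hyperplastic against healthy skin (-0.10).

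Leaving out 1 library at a time ended 20 calls, gave 7 and turned 14 signs. Against healthy skin, the ranges were -1.50 to -0.87 for miR-221-3p and 0.69 to 1.31 for miR-222-5p in papilloma, and -0.026 to 0.85 for miR-221-3p and -0.15 to 0.65 for miR-221-5p in cSCC. Against hyperplastic skin, they were -0.41 to 0.013 for miR-221-5p and 0.89 to 1.45 for miR-222-5p in papilloma, and 0.36 to 1.20 for miR-221-3p, 0.76 to 1.42 for miR-222-3p and 0.32 to 1.08 for miR-221-5p in cSCC, the last called without hyperplastic 7 or 8 or cSCC 1, 3 or 6. For cSCC against papilloma miR-221-5p ranged from 0.67 to 1.25. Of the ratios, none passed: miR-221-3p to miR-222-3p ran from -0.31 to 0.13 in papilloma and from -0.23 to 0.068 in cSCC against healthy skin, and from -0.17 to 0.20 between the tumours. The log2 ratio of miR-221-3p to miR-221-5p ran from -0.023 to 0.24 in hyperplastic against healthy skin and from -0.013 to 0.19 in cSCC against hyperplastic skin. Depth limits the 5p arms most, with no more than 119 reads in any library.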
